A study of Mus musculus with 6 samples.

Results

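The genes described here make up the MHC class II antigen presentation pathway: the class II chains H2-Aa, H2-Ab1 and H2-Eb1, the peptide-loading chains H2-DMa, H2-DMb1, H2-Oa and H2-Ob, the invariant chain Cd74 and the transactivator Ciita. They were chosen by name, with earlier results of these data known, as probe sets whose platform annotation gives a single gene symbol. Of the 9 genes, 7 had such a probe set, 11 probe sets in all, among 22626 probe sets and 12393 such genes on the array. H2-DMb1 and H2-Ob had none and were not analysed here. A probe set is a group of short oligonucleotides read together as a single value, which the platform annotation assigns to a gene.

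Total lung RNA was hybridised to the Affymetrix Mouse 430A array, 1 lung sample per array, for 3 mice given leptin and 3 given saline. All animals, controls included, were females of strain B6.V-Lepob/J, homozygous for the obese (ob) mutation of the leptin gene on a C57BL/6J background, and about 1 month old. According to the labels each sample came from 1 animal. The labels give no dose, route or duration of the treatment, and an ob/ob mouse given saline lacks functional leptin throughout. The question the design puts is how lung expression changes once leptin is restored.

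Class II molecules present peptides from endosomes to CD4 T cells. The alpha and beta chains assemble in the endoplasmic reticulum on the invariant chain, whose last fragment, CLIP, stays in the groove until H2-M exchanges it for a peptide, while H2-O inhibits H2-M. Ciita is the non-DNA-binding coactivator that switches the whole set on. It does so through a promoter module of X and Y boxes bound by RFX, CREB and NF-Y, either constitutively in B cells and dendritic cells or after interferon gamma. In the mouse lung, alveolar type II cells also carry class II on their surface.

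The shared promoter module is shown because it is the feature that ties these genes to Ciita. RefSeq promoter windows (GRCm38.p6, 250 bases before to 50 after a gene's start) were held for 6 of the 9 genes, in 7 windows. Both strands were searched for GNAAC followed after 20 to 30 letters by GATTGG, the first standing for the core of the X box and the second for the Y box. This spaced pair was found in 214 of 32851 windows (0.651%), and in 5 of the 7 windows of these genes. GATTGG alone was found in 16.1% of all windows and GNAAC alone in 84.8%. The 5 stretches follow 5′ to 3′ on the strand of the gene, with the 2 motifs in capitals.
H2-Aa, chr17:34287859-34287912, minus strand: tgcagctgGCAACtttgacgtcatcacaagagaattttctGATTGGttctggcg
H2-Eb1, chr17:34305768-34305820, plus strand: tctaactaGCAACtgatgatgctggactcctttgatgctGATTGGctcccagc
H2-Oa, chr17:34092295-34092348, plus strand: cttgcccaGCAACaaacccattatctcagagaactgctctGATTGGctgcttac
H2-DMb1, chr17:34153089-34153142, plus strand: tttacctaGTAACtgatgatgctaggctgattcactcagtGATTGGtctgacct
H2-Ob, chr17:34238810-34238860, plus strand: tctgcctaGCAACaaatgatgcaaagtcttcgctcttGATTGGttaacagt
The gap between the motifs was 24 to 27 letters, and GATTGG began 44 to 62 bases before the gene's start. Neither window of H2-DMa held the pair. A match is a description of letters, not a shown binding site. In the RefSeq order of protein-coding genes on chromosome 17, H2-Ob, H2-Ab1, H2-Aa and H2-Eb1 followed each other with 0 genes between them, and H2-Oa, H2-DMa and H2-DMb1 with 1 between neighbours.

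The array of saline replicate 1 was kept apart. Its log2 values correlated at 0.440 to 0.449 with those of the other arrays, which correlated with each other at 0.973 to 0.978 (Pearson's r across probe sets). Surfactant protein C (Sftpc), which marks alveolar type II cells, read 23964 to 29732 on the other 5 arrays and 4087 on saline replicate 1. A median of 29.8 times the mean level of the other arrays was read there for 18 hybridisation control probe sets. Values are linear intensity values that the authors had scaled, so a level is not read as an amount that can be compared between probe sets. The summed intensities of lists given below add unlike probe sets. Such sums are compared between arrays, and they follow mainly the brightest members of a list. Tests were run with limma on log2(intensity + 22.0) of 15838 probe sets, leptin minus saline, with p-values adjusted over all of them by Benjamini-Hochberg and a threshold of 0.05. In whole lung, fewer cells of a type and less RNA per cell cannot be told apart.

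Without saline replicate 1, each of the 7 class II genes read higher on average in leptin-treated lungs, by 0.16 to 0.32 on the log2 scale for the brightest probe set of each, with a median of 0.24. No class II probe set passed the adjusted threshold. Over the 9365 genes tested the median was -0.01, and 48.3% were above 0. The 10 tested class II probe sets were all above 0, against 50.3% of all probe sets. In 6 of the 10, from 4 genes (H2-Aa, H2-Ab1, H2-Eb1 and Cd74), every leptin array read above both saline arrays, which 9.92% of all probe sets did. At an unadjusted p under 0.05, 4 of the 10 were higher and 0 lower, against 2.61% of all probe sets called higher. That count of 4 was 2 without leptin replicate 3, 1 with no variance trend and 2 with arrays scaled to a common median. It was 3 without leptin replicate 1 or 2, with no filter and on all 6 arrays with array weights, and 0 on all 6 arrays without weights. It was 5 with the replicate number as a block. The number above 0 was 9 of 10 with the block, without leptin replicate 1 and without saline replicate 3. The adjusted threshold was passed by 7 of 15838 probe sets (0.0442%). The probe sets of a gene are meant to read its transcripts, and these genes share their cells, so the 10 are not independent. The genes were also chosen with earlier results of these data known, so these shares do not come from a blind choice.

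**Figure D1:**
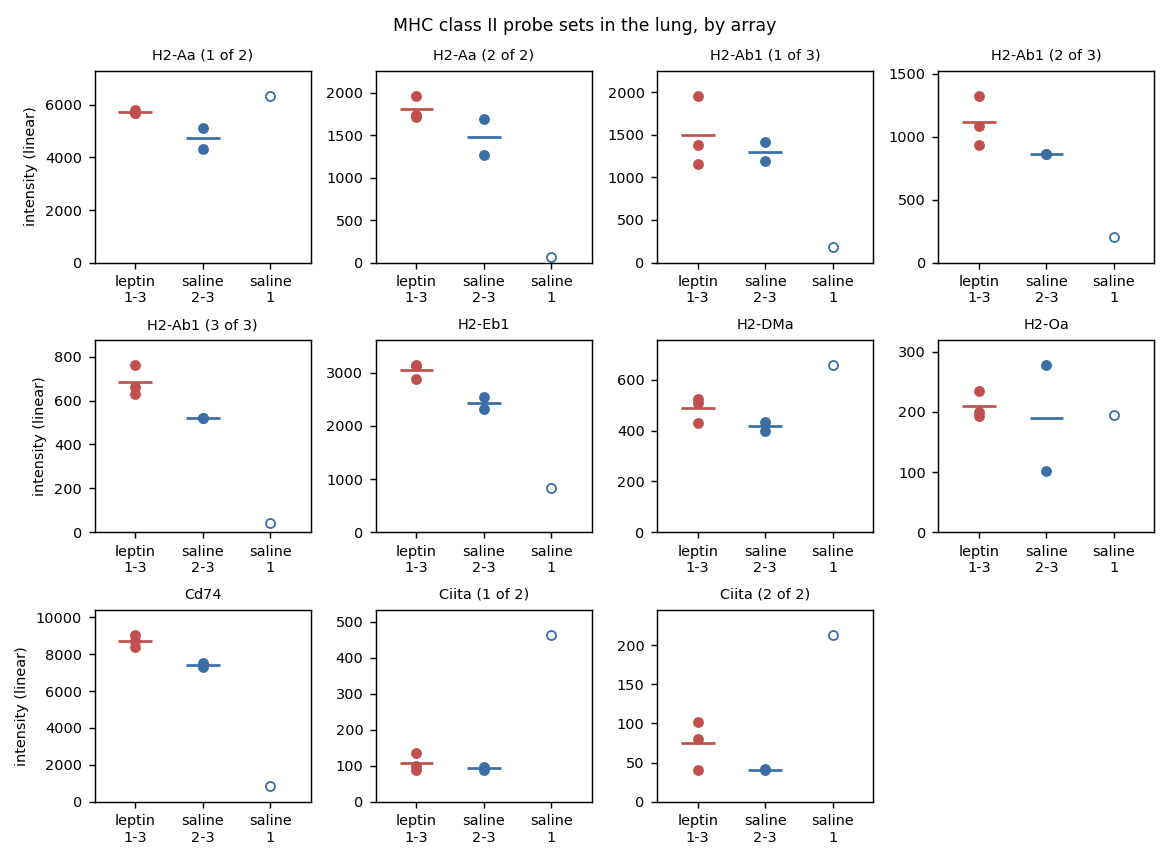
Linear intensity (y axis, from 0) of each of the 11 MHC class II probe sets on each array. Red points are the 3 leptin arrays, filled blue points saline replicates 2 and 3, and the open blue point saline replicate 1, with bars at the means of the filled points. Probe sets of a gene are numbered from the brightest. Cd74 read 8392 to 9055 with leptin, 7281 to 7510 on the filled saline points, and 853 on the open point.

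H2-Aa encodes the alpha chain of the H2-A molecule, the class II molecule that C57BL/6 mice place on the cell surface. Its brightest probe set (1435290_x_at) read 5703, 5789 and 5685 with leptin against 4334 and 5119 with saline, where leptin values are given here and after in the order of replicates 1, 2, 3 and saline values in the order of replicates 2, 3. The leptin arrays lay close together and all above the saline arrays, at 5726 ± 55.3 (SD, n = 3) against 4727 ± 555 (SD, n = 2). The difference was 0.28 ± 0.12 (log2 ± SE; limma unadjusted p = 0.0340, adjusted p = 1.00). It was 0.16 without saline replicate 2 and 0.40 without saline replicate 3.

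The other H2-Aa probe set (1452431_s_at) read 1732, 1964 and 1710 with leptin against 1695 and 1271 with saline. The groups were apart by a narrow gap, 1710 against 1695. Its difference was 0.29 ± 0.15 (limma unadjusted p = 0.0841), of the same size as that of the brightest. On saline replicate 1 the H2-Aa probe sets went opposite ways: the brightest read 6351, or 1.34 times the mean of the other saline arrays, and the other read 71.2, or 0.0480 times.

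H2-Ab1 encodes the beta chain that pairs with H2-Aa, and its 3 probe sets did not behave alike. The brightest (1450648_s_at) read 1958, 1161 and 1376 with leptin against 1186 and 1409 with saline. The groups overlapped, and leptin replicate 1 stood above the rest. Its difference was 0.18 ± 0.20, and it turned to -0.03 without leptin replicate 1. With the replicate number as a block it was also -0.03, since leptin replicate 1 then has no partner.

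The second H2-Ab1 probe set (1451721_a_at) read 931, 1086 and 1325 with leptin against 863 and 861 with saline. The third (1425477_x_at) read 660, 629 and 762 with leptin against 522 and 520 with saline. In these probe sets every leptin array lay above both saline arrays, which were nearly equal. Their differences were 0.35 ± 0.16 (limma unadjusted p = 0.0576) and 0.37 ± 0.15 (unadjusted p = 0.0303). On saline replicate 1 the 3 probe sets read 186, 200 and 40.3.

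H2-Eb1 encodes the beta chain of the H2-E molecule. Its single probe set read 2885, 3145 and 3124 with leptin against 2544 and 2322 with saline. The groups did not overlap, at 3051 ± 145 (SD, n = 3) against 2433 ± 157 (SD, n = 2). Its difference of 0.32 ± 0.12 had the smallest unadjusted p of the class II probe sets (limma unadjusted p = 0.0207, adjusted p = 1.00). Saline replicate 1 read 823.

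C57BL/6 mice do not make H2-E, because the promoter of the alpha chain gene H2-Ea is deleted in their haplotype. The brightest of the 3 H2-Ea probe sets read 58.7, 76.8 and 46.5 with leptin against 10.8 and 46.6 with saline, with 184 on saline replicate 1. None of the 3 passed the filter on dim values. The H2-Eb1 differences therefore describe a beta chain transcript whose partner was too dim to be tested.

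Cd74, the invariant chain, is the chaperone that fills the class II groove and steers the complex to endosomes. Its probe set read 8723, 8392 and 9055 with leptin against 7510 and 7281 with saline. These values lay at or above percentile 99.0 of each of the 5 arrays, and every leptin array was above both saline arrays. The means were 8723 ± 332 (SD, n = 3) and 7396 ± 162 (SD, n = 2), a difference of 0.24 ± 0.10 (limma unadjusted p = 0.0422, adjusted p = 1.00). Of all the class II genes Cd74 had the narrowest range when 1 further array was left out, from 0.21 to 0.26. On saline replicate 1 it read 853, at percentile 80.9 of that array.

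H2-DMa encodes the alpha chain of H2-M, which removes CLIP. It read 526, 510 and 429 with leptin against 400 and 436 with saline. Leptin replicate 3 lay between the saline arrays, so the groups overlapped. The difference was 0.21 ± 0.16 (limma unadjusted p = 0.213).

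H2-Oa encodes the alpha chain of the inhibitor H2-O, which is made mainly in B cells. It read 194, 201 and 235 with leptin against 278 and 102 with saline. The saline arrays thus enclosed the leptin arrays, and the spread of saline decided the sign. The difference was 0.26 ± 0.32 (95% confidence interval -0.44 to 0.97). It was 0.90 without saline replicate 2 and -0.37 without saline replicate 3.

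Ciita, the transactivator of the set, was dim. Its brighter probe set (1421210_at) read 88.7, 98.3 and 135.5 with leptin against 97.3 and 87.6 with saline. The groups overlapped, with a difference of 0.16 ± 0.27 and a 95% confidence interval of -0.43 to 0.76. Its values lay between percentiles 27.2 and 38.3 of the 5 arrays. The other Ciita probe set (1421211_a_at) read 102, 80.8 and 41.1 against 41.9 and 40.3 and fell below the filter on dim values. In the fit with no filter its difference was 0.56 ± 0.33, with a 95% confidence interval of -0.20 to 1.32. On saline replicate 1 the Ciita probe sets read 464 and 214, about 5.02 and 5.19 times the mean of the other saline arrays.

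**Figure D2:**
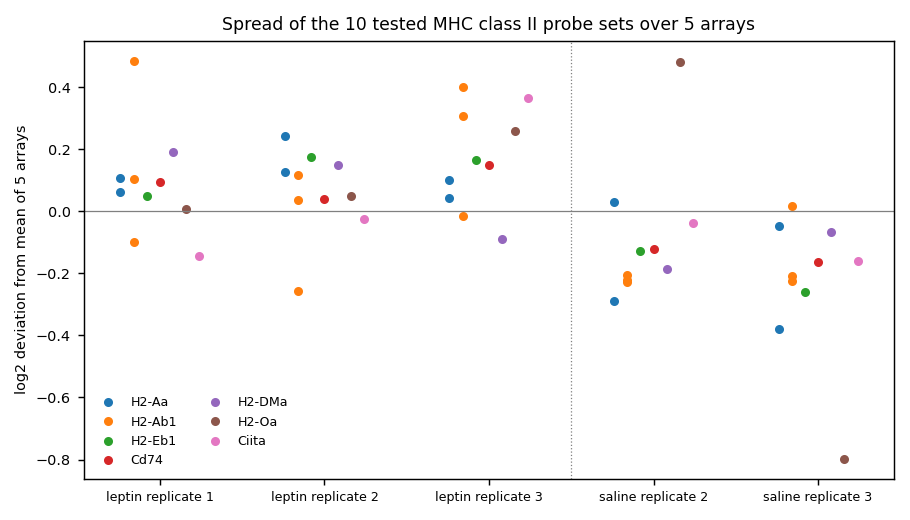
Log2 deviation of each of the 10 tested class II probe sets from its own mean over 5 arrays (y axis), by array (x axis), coloured by gene. Cd74, H2-Eb1 and the brightest H2-Aa probe set lie above 0 on each leptin array and below 0 on both saline arrays, while H2-Oa lies at 0.48 and -0.80 on saline replicates 2 and 3.

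The size of these differences stayed below the limit of the series' own rule in the tested probe sets. That rule asks for at least 1.5-fold in at least 6 of 9 leptin-saline pairs. It also asks for at least 1.5-fold between group means and an unadjusted p under 0.05. Ratios of group means without saline replicate 1 ran from 1.11 for H2-Oa to 1.31 for the third H2-Ab1 probe set among those tested. With 2 saline arrays the same share is 4 of 6 pairs, and 0 of the 10 class II probe sets met the rule, against 0.492% of all probe sets. H2-Oa reached 1.5-fold in 3 of 6 pairs. The dim Ciita probe set left out of the tests reached it in 4 of 6, with a ratio of group means of 1.82. The Cd74, H2-Eb1 and brightest H2-Aa probe sets reached 1.5-fold in 0 of 6 pairs. The upper ends of their 95% confidence intervals were 0.46, 0.59 and 0.54, and the lower ends 0.01, 0.06 and 0.03.

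With all 6 arrays, the comparison as the series states it, the class II genes were less alike. The median over the 7 genes was 0.21, and 6 of 7 genes and 9 of 10 probe sets were above 0, against 51.3% of all probe sets. No class II probe set passed the adjusted threshold, and neither did any other (0% of 15838 probe sets). At an unadjusted p under 0.05, 0 of the 10 were higher, against 0.202% of all probe sets, and 0 were lower. The series' rule was met by 0 of the 10 and by 0.202% of all probe sets. In 5 of the 10 every leptin array read above all 3 saline arrays, as in 5% of all probe sets.

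Saline replicate 1 set the size and spread of these values. Cd74 was then at 1.27 ± 0.89, H2-Eb1 at 0.84 ± 0.48 and the brightest H2-Ab1 probe set at 1.06 ± 0.76 (log2 ± SE; limma adjusted p = 0.715 for each), because all 3 read low on that array. The H2-Aa probe sets parted, at 0.14 ± 0.37 and 1.62 ± 1.08. H2-DMa was at 0.00 ± 0.28 and H2-Oa at 0.21 ± 0.39. Ciita turned to -0.53 ± 0.63 (limma adjusted p = 0.716), as it read highest on that array.

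**Figure D3:**
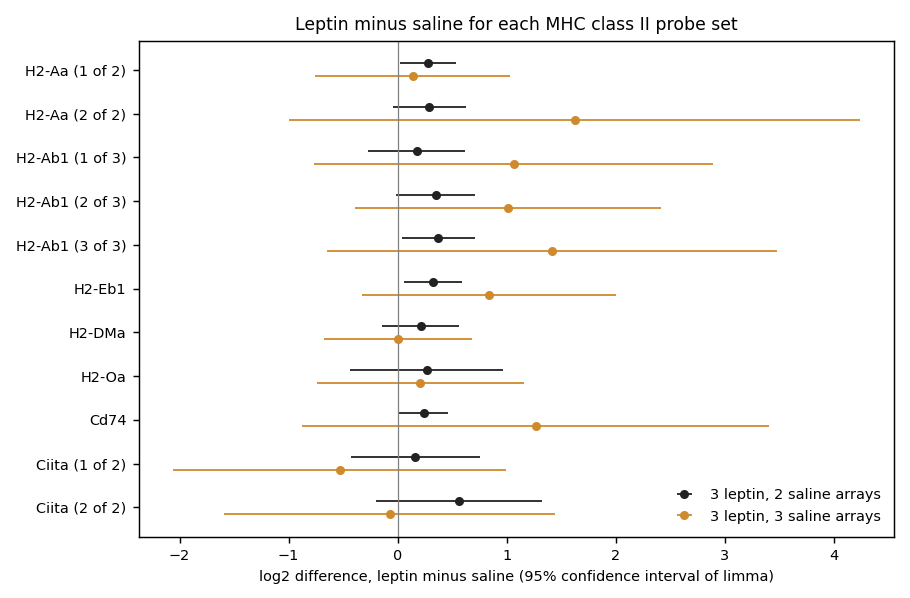
Log2 difference, leptin minus saline, of each class II probe set (points) with limma's 95% confidence interval (bars), on 3 leptin and 2 saline arrays (black) and with saline replicate 1 added (orange). Cd74 moves from 0.24 to 1.27 and Ciita (1 of 2) from 0.16 to -0.53. The dim Ciita (2 of 2) comes from the fits with no filter.

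The other genes of the pathway did not share one direction. Of the genes that regulate class II transcription, activators together with the inhibitors Socs1 and Prdm1, 18 of 20 listed were tested without saline replicate 1, and 12 were higher and 6 lower, with a median of 0.06 and 0 past the threshold. The smallest unadjusted p among them were those of Irf1, an interferon-induced activator, at 0.26 ± 0.14, and of Nfya, a subunit of the Y box factor NF-Y, at 0.24 ± 0.14. The other tested probe sets of Nfya were at 0.08 and 0.07. Rfx5, the DNA-binding subunit of RFX, read 430, 520 and 501 with leptin against 483 and 475 with saline, a difference of 0.01 ± 0.15. Its groups overlapped.

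Among the endosomal proteases and their partners 8 of 12 listed names were tested, with 5 higher, 3 lower, a median of 0.03 and 0 past the threshold. Ctss, the cathepsin that trims the invariant chain to CLIP, was at -0.03 ± 0.16. The smallest unadjusted p belonged to Cst3, a cathepsin inhibitor, at 0.15 ± 0.13, and Lgmn, the asparagine endopeptidase, at -0.15 ± 0.14. H2-DMb2, the other beta chain of H2-M, was at -0.16 ± 0.17, opposite in sign to H2-DMa.

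Costimulatory and co-receptor genes gave 4 higher and 2 lower of 6 tested (of 8 listed), with a median of 0.20 and 0 past the threshold. Cd274, which encodes the inhibitory ligand PD-L1, read 167, 134 and 160 with leptin against 92.6 and 50 with saline. Its groups did not overlap, and its difference was 0.95 ± 0.28 (limma adjusted p = 0.851). Pdcd1lg2, the other ligand of PD-1, went the opposite way, at -0.38 ± 0.23. Cd4, the co-receptor that binds class II, was too dim for the test, at 24.2 to 40.8 on those 5 arrays.

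The class I pathway, listed for comparison, was higher in 9 of 9 genes tested (of 10 listed), with a median of 0.23 against 0.24 in the class II genes, and 0 past the threshold. B2m, the light chain of class I, read 12152, 10461 and 12650 with leptin against 8961 and 8352 with saline, a difference of 0.44 ± 0.11 (limma adjusted p = 0.661). Psmb9, an immunoproteasome subunit, was at 0.77 ± 0.18 (adjusted p = 0.410). Higher values on these arrays were thus not particular to class II.

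Markers of cells that carry class II were set beside these values. Of 14 B cell markers 11 were tested, 10 were higher and 1 lower, the median was 0.29 and 0 passed the threshold. The summed intensity of the 13 B cell markers with a probe set was 2849 to 3342 with leptin against 2241 to 2670 with saline, so the groups did not overlap. Among single probe sets, 9.92% of all read higher on every leptin array than on both saline arrays. Cd37 and Fcer2a, B cell surface proteins, had the smallest unadjusted p, at 0.60 ± 0.21 and 0.60 ± 0.23. Cr2, counted among the 10 higher, was at 0.00 ± 0.24. No B cell marker had an intensity of 0, but the B cell factor Pax5 read 18.3 to 26.6 on the 5 arrays. The part of B cells in the class II values was not tested.

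Dendritic cell markers were mixed, with 5 higher and 3 lower of 8 tested (of 14 listed) and a median of 0.03. Their sums, 2176 to 2685 with leptin against 2357 and 2425 with saline, overlapped. Itgax, the CD11c integrin chain, was at 0.47 ± 0.23 and Mgl2, a lectin of dendritic cells and macrophages, at -0.28 ± 0.17. Macrophage markers were higher in 7 of 7 tested (of 12 listed), with a median of 0.12 and overlapping sums, 10588 to 12573 against 9967 and 11832. The 2 with the smallest unadjusted p were Mertk, at 0.25 ± 0.16, and Cd68, at 0.21 ± 0.18. T cell markers gave 3 higher and 2 lower of 5 tested (of 10 listed), with a median of 0.14. Their sums of 1077 to 1314 and of 846 and 1105 also overlapped. Cd3d, a chain of the T cell receptor complex, was at 1.17 ± 0.37 (limma adjusted p = 0.936) and Thy1 at 0.17 ± 0.17. For Cd3d the saline arrays were far apart, at 139.5 and 35.6, against 177.4 to 205.5 with leptin. None of these lists had a member past the threshold.

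The medians of the epithelial lists lay on the other side of 0, with 0 genes past the threshold. Alveolar type II markers, which come from cells that carry class II themselves, were higher in 2 and lower in 6 of 8 tested (of 9 listed), with a median of -0.11. Their summed intensity was 109780 to 123480 with leptin against 125310 and 125590 with saline. Sftpb, surfactant protein B, was at -0.22 ± 0.10 (limma adjusted p = 1.00) and Sftpd at -0.17 ± 0.11. Alveolar type I markers were higher in 2 and lower in 3 of 5 tested, with a median of -0.07. Hopx was at -0.19 ± 0.10 and Aqp5 at -0.19 ± 0.11, while Cldn18 was at 0.14 ± 0.13 and Pdpn at 0.03 ± 0.14. Club cell markers were lower in 4 of 4 tested, with a median of -0.09, with Scgb3a1 at -0.12 ± 0.09 and Scgb3a2 at -0.10 ± 0.10. Club cell sums were 73421 to 79558 with leptin and 82058 and 81480 with saline. The share of all probe sets lower on every leptin array was not counted, so nothing is drawn from the gaps between these sums.

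Erythroid markers fell with leptin in 3 of 5 genes tested (of 8 listed), past the threshold, and the other 2 were lower as well, with a median of -1.16. Slc25a37, the erythroid iron importer, Alas2, the erythroid haem synthesis enzyme, and Bpgm, the red cell bisphosphoglycerate mutase, were at -1.20 ± 0.14, -1.20 ± 0.15 and -1.16 ± 0.16 (limma adjusted p = 0.0496 for each). With all 6 arrays the list had no common direction, with 2 of 5 higher, a median of -0.04, Alas2 at 1.12 ± 1.86, Slc25a37 at 0.27 ± 1.19 and 0 past the threshold. No probe set of the array passed with all 6 arrays unweighted, with the replicate block, under 5 other processing alternatives, or without leptin replicate 1 or saline replicate 3. The summed intensity of 6 markers was 6014 to 7602 with leptin against 13576 and 16287 with saline. The part of this change in the class II values was not tested. Markers of lymphoid organs, such as Cxcl13 at -0.12 ± 0.28 and Madcam1 at 0.07 ± 0.29, had a median of 0.02 over 3 tested (of 9 listed), and Rag1, Rag2 and Glycam1 read 1.50 to 15.1 on the 5 arrays.

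**Figure D4:**
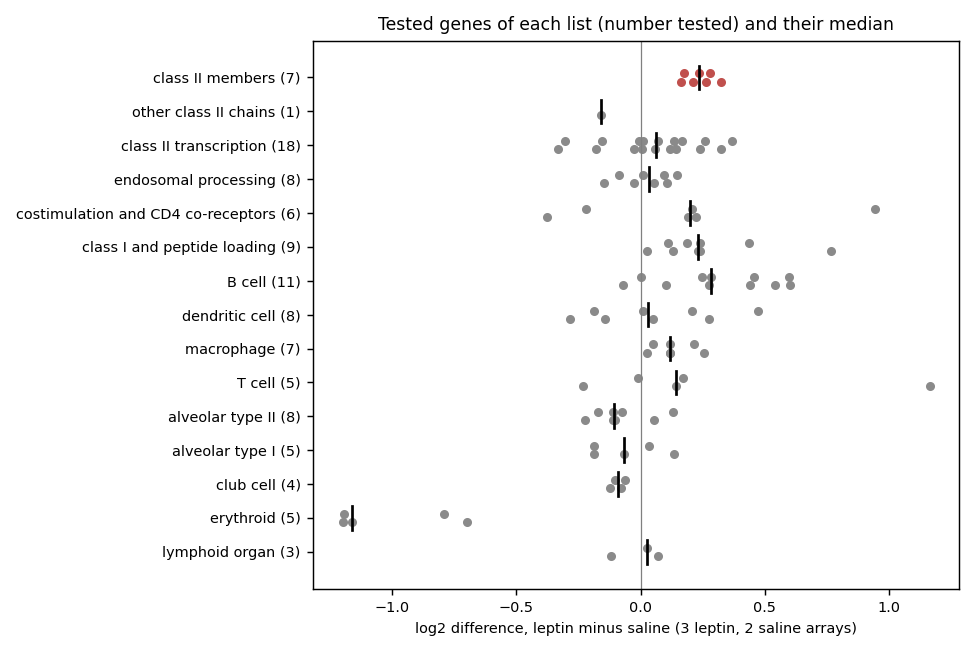
Log2 difference, leptin minus saline, without saline replicate 1 (x axis) for the tested genes of each list (y axis, number tested in brackets), with a black line at each median. The 7 class II genes (red) lie between 0.16 and 0.32. Values in that span also occur in the ranges of the class I, class II transcription, costimulation, B cell, dendritic cell, macrophage and T cell lists. The macrophage range reaches 0.25. The erythroid genes lie between -1.20 and -0.70.

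On saline replicate 1 the same lists were displaced in both directions. The summed class II intensity there was 0.515 times the mean of the other 5 arrays, that of class I 0.0699 times, that of alveolar type II markers 0.128 times and that of erythroid markers 0.157 times. B cell markers summed to 2.44 times, macrophage markers to 8.96 times and T cell markers to 4.17 times that mean. With that array included, medians turned sign for several lists: to -0.30 for B cell, -0.07 for dendritic cell, -0.59 for T cell, -0.85 for lymphoid organ and -0.10 for costimulatory genes, and to 0.91 for alveolar type II, 1.22 for alveolar type I and 0.29 for club cell markers. H2-DMb2 turned to 0.17. On saline replicate 1 itself the macrophage markers were led by Csf1r, at 93803 against 2950 to 3384 elsewhere. Of the class II sum on that array, 9530, the brightest H2-Aa probe set made up 6351, while the other H2-Aa probe set read 71.2.

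The pattern over the 5 arrays was also compared gene by gene. The mean log2 deviation of the brightest H2-Aa, H2-Ab1, H2-Eb1 and Cd74 probe sets was 0.18, 0.02 and 0.10 with leptin against -0.19 and -0.11 with saline. Over 9260 genes outside the lists, the 5 nearest to it by Euclidean distance were Smim19 (0.0420), Slc19a1 (0.0435), Dock8 (0.0492), Zbtb2 (0.0554) and Slc11a2 (0.0663), against a median distance of 0.473. Their differences were 0.24 to 0.28, and none passed the threshold. Of the probe sets averaged into this reference, Cd74 lay at 0.135, H2-Aa at 0.176, H2-Eb1 at 0.266 and H2-Ab1 at 0.448. Of those outside it, H2-DMa lay at 0.233, the third H2-Ab1 probe set at 0.250, the other H2-Aa probe set at 0.431, the second H2-Ab1 probe set at 0.435, Ciita at 0.454 and H2-Oa at 0.988. The last 4 of these and the brightest H2-Ab1 probe set were thus near or above the median of other genes. With 5 arrays such likeness is a description of these arrays only.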

How the data were processed

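Lung RNA of 3 leptin-treated and 3 saline-treated mice was hybridised to 1-colour arrays. The authors deposited linear intensity values per probe set, and the sources used here do not name the summarising software. A mean trimmed by 2% at each end was 500.10 to 500.14 on each array, so the authors had scaled them, and no further normalization was applied. On an array with little signal, such scaling enlarges all values. The number of arrays limits the precision, and detection calls were not used here.

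Left out were 64 control probe sets. Of the others, 20380 had 1 symbol in the platform annotation, 691 several and 1555 none, and 0 symbols were changed by RefSeq. Values were turned into log2(intensity + 22.0), which understates changes of dim probe sets. The pseudocount was the 10th percentile over all 6 arrays, control probe sets and saline replicate 1 included, also for the fit on 5 arrays. That percentile was 57 on saline replicate 1 and 16.3 to 19.2 on the other arrays. The lowest 30% by mean were left out. limma 3.58.1 in R 4.3.3 (lmFit, eBayes with trend, two-sided) was fitted to all 15838 probe sets, on 5 arrays without saline replicate 1 and on 6, and tested on simulated data. A gene was represented by its brightest tested probe set. For the series' rule, fold changes and a pooled-variance 2-sample test used the same log2 values.

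The members and lists were chosen with earlier results of these data known. All members are named; of each other list, those past the threshold or otherwise the 2 with the smallest unadjusted p. Rfx5, Socs1, Prdm1, Ctss, Cd4, H2-Ea, Pax5, Cr2, Csf1r, Sftpc, Cldn18, Pdpn, Rag1, Rag2 and Glycam1 were named beyond this rule, after their values were seen.

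No label says that replicate numbers pair animals. Across probe sets, deviations from the group mean correlated at 0.103 to 0.144 between arrays of equal number and at -0.147 to 0.0491 between the others. The saline group mean there included saline replicate 1, so that array enters every saline deviation. The check therefore cannot tell whether the numbers pair the arrays. Blocked values are given where they change a direction or call. Alternatives were the block, other normalizations, pseudocounts, filters and variance priors, array weights, a threshold of 0.10, and leaving out each array.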

Additional observations from a re-analysis of the deposited data

How the results depend on the processing

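Under all alternatives run, 0 class II probe sets passed the adjusted threshold, also at 0.10. Without saline replicate 1 the class II median stayed between 0.19 and 0.27, and 105 of 109 gene values kept their direction. The exceptions were H2-Ab1 with the replicate block and without leptin replicate 1 (-0.032 in both), H2-Oa without saline replicate 3 (-0.37) and Ciita with all 6 arrays (-0.53). On all 6 arrays 77 of 84 gene values kept their direction. H2-DMa turned to -0.0012 with a pseudocount at the 25th percentile (79.9), and to -0.05, -0.03, -0.13 and -0.07 without leptin replicate 1 or 2 or saline replicate 2 or 3, its range being -0.13 to 0.21. H2-Oa was at -0.14 without saline replicate 3 (range -0.14 to 0.50), and Ciita at 0.16 without saline replicate 1 (range -0.91 to 0.16). The median of the class II genes was 0.13 to 0.50 when 1 array was left out, the highest without saline replicate 2. Scaling the 6 arrays to a common median moved the median of all probe sets by 0.15, and dropping the filter by -0.17.

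Of all probe sets, 7 passed without saline replicate 1. That number was 0 with the replicate block, all 6 arrays without weights, no trend, quantile normalization, no filter, scaling to a common median and a pseudocount of 1, 0 to 3 when 1 further array was left out, and 13 at a threshold of 0.10. It was 7 with a pseudocount at the 25th percentile, 6 with the lowest 50% left out and 8 on all 6 arrays with array weights. On all 6 arrays without weights it was 0, and 0 to 7 when an array was left out (7 without saline replicate 1). The series' rule gave 32 probe sets on 6 arrays and 78 without saline replicate 1. The block changed no other direction of a class II gene, and no call at the adjusted threshold. Of the leave-one-out ranges without saline replicate 1, H2-Ab1 ran from -0.032 to 0.34 and H2-Oa from -0.37 to 0.90. The cause of these changes was not tested.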
